A study of Mus musculus with 11 samples.

Results

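The hormones adiponectin, leptin, growth hormone, apelin and fibroblast growth factor 21 (FGF21) act on fat through a small group of receptor genes, and 8 of these genes were followed in the gonadal white adipose tissue (WAT) of mice fed a high fat diet (HFD) with or without iodomethylcholine (IMC). The genes were taken by their symbols (Adipor1, Adipor2, Cdh13, Lepr, Klb, Fgfr1, Ghr and Aplnr), and all 8 were present among the 12787 genes of the deposited table. In IMC-treated mice 5 of them were higher, 0 were lower and 3 were not called different (limma, Benjamini-Hochberg adjusted p under 0.05 over all genes). Of all genes tested, 19.99% were higher and 21.0% lower by the same rule. The call for Cdh13 was lost in 9 of 18 alternatives, each of which left 4 receptor genes called. The fibroblast growth factor co-receptor Klb was 2.001-fold higher, the growth hormone receptor Ghr 1.77-fold and the adiponectin receptor Adipor2 1.56-fold, each with every IMC-treated mouse above every HFD mouse, as was so for 12.5% of all genes. Adipor1, the leptin receptor Lepr and the signaling receptor Fgfr1 were not called different.

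RNA was sequenced from 5 mice on the HFD with vehicle (HFD, mice 2 to 6) and 6 mice on the HFD with IMC (HFD + IMC, mice 7 to 12), with 1 library per mouse and no cell type or transgene selected. All were male C57BL/6J mice kept on a 60% HFD for 20 weeks, and IMC was supplied at 0.06% w/w of the diet. IMC is a small molecule inhibitor of the bacterial enzyme CutC, which releases trimethylamine from choline in the gut. An additional vehicle library had failed the submitters' quality control, and neither an untreated lean group nor the age at the start of the diet was given beside these libraries in the sources used here.

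Adipor1 and Adipor2 encode membrane receptors for adiponectin, a hormone secreted by fat cells, and belong to the PAQR family of proteins with several membrane-spanning helices. Cdh13 encodes T-cadherin, a lipid-anchored protein that binds the large forms of adiponectin and is known mainly from endothelial and smooth muscle cells. Leptin and growth hormone act through Lepr and Ghr, cytokine-type receptors that signal through the kinase JAK2 and STAT proteins. FGF21 needs a receptor tyrosine kinase, in fat mainly Fgfr1, together with beta-Klotho, the product of Klb, which gives the complex its affinity for FGF21. Aplnr encodes a G protein-coupled receptor for apelin that is found in endothelial cells.

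The values are log2 CPM (read counts relative to the library size), scaled by the authors to the upper quartile of each library, so that a difference of 1 is a 2-fold change in CPM. The libraries held 22320022 to 25155366 reads on the listed genes, and a single read was worth 0.0403 to 0.0450 CPM. Among pairs of libraries from the same group, the lowest chi-square per degree of freedom was 8.44, so none of these pairs looked like 1 library deposited again. In numbers, 2556 of the 12787 genes were called higher after IMC and 2680 lower, and for 1602 genes every IMC-treated mouse was above every HFD mouse. The median log2 difference was -0.03 over all genes and 0.37 over the receptor genes. In whole tissue, fewer cells of a type and less RNA per cell cannot be told apart, which holds for each level and difference given here.

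The positions given here are those of GENCODE M21 on mm10 (GRCm38), the build of the deposited table. Adipor1 lies at chr1:134415378-134433351 on the plus strand and Adipor2 at chr6:119353150-119417704 on the minus strand. Cdh13 spans 1041189 bases at chr8:118283733-119324921 on the plus strand and shares that chromosome with Fgfr1, at chr8:25513654-25575718 on the plus strand. Lepr lies at chr4:101717404-101815352 and Klb at chr5:65348314-65384007, both on the plus strand. Ghr covers chr15:3317760-3583492 on the minus strand, while Aplnr is the shortest of the 8, at chr2:85136225-85139923 on the plus strand with all its exon sequence in 1 block. Fgfr1 overlaps an antisense gene over 164 exon bases (1.66% of its exon sequence), and the introns of Cdh13 hold 5 short annotated genes that share 0 exon bases with it. None of these overlapping genes is listed in the table, and the other 6 receptor genes overlap no annotated gene.

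The sequence before a RefSeq transcription start (GRCm38.p6) is shown 5′ to 3′ on the strand of the gene. It is given for the 3 receptor genes that rose without overlap, and for Adipor1 as the paralog of Adipor2 that was not called. A link between these sequences and the differences was not tested. The window was 250 bases, shortened for Klb and Ghr to the 153 and 110 bases that lie before any annotated exon. Capitals mark matches to the GC box GGGCGG on either strand. RefSeq windows were found for 5 of the 8 genes, these 4 and Lepr.
Adipor1, chr1:134415128-134415377: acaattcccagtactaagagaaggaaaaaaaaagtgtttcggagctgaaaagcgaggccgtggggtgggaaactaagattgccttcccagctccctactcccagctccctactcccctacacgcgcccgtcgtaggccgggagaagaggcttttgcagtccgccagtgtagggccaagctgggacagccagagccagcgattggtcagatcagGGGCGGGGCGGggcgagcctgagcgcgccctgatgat
Adipor2, chr6:119388735-119388984: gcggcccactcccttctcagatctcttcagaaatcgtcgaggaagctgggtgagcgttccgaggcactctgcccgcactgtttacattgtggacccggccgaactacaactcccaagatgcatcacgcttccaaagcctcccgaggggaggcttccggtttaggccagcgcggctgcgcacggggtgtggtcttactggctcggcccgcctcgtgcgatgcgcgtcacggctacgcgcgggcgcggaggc
Klb, chr5:65348161-65348313: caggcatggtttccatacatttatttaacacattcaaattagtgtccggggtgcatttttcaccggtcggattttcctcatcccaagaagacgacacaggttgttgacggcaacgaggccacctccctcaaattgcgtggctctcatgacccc
Ghr, chr15:3583493-3583602: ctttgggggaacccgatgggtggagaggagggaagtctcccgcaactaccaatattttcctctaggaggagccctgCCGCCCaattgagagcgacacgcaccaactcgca
The Adipor2 window belongs to a start inside the annotated locus, downstream of the first annotated base of the gene. In the full 250 bases, GC content was 59.6% for Adipor1, 64.8% for Adipor2, 48.0% for Klb and 65.6% for Ghr, where the median over all 32851 promoters was 52.4%. The Adipor1 window held the GC box at positions -37 and -32, a pair of matches that overlap by 1 base, and the Ghr window held it as well, at positions -174 and -93 counted from the start, the second in the stretch not shown. A GC box was present in 32.7% of all promoters. Searched on both strands, the nuclear receptor core site AGGTCA (14.0% of all promoters), the STAT motif TTCNNNGAA (7.02%), the E-box CACGTG (6.02%), the C/EBP motif TTGCGCAA (0.164%) and the cyclic AMP response element TGACGTCA (1.55%) matched in none of these 4 windows, nor in that of Lepr. The Adipor2, Klb and Lepr windows held no GC box either.

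Levels were compared between genes as CPM per kilobase of exon. In HFD mice the geometric mean per kilobase was 70.5 CPM for Adipor2, 59.9 for Ghr, 41.4 for Adipor1 and 25.3 for Fgfr1. Further down came Aplnr with 8.47, Klb with 3.98, Cdh13 with 1.15 and Lepr with 0.602 CPM per kilobase. Adipor2 and Ghr were neighbours whose ranges over mice overlapped, while every other step down this order was wider than the spread between HFD mice. In IMC-treated mice the order was the same, with 110 CPM per kilobase for Adipor2, 106 for Ghr, 40.5 for Adipor1, 25.0 for Fgfr1, 10.8 for Aplnr, 7.97 for Klb, 1.52 for Cdh13 and 0.542 for Lepr. There the ranges of Aplnr and Klb overlapped as well as those of Adipor2 and Ghr. The FGF21 co-receptor Klb was thus the scarcer partner of Fgfr1 at the RNA level in both groups, and Lepr had the lowest level per kilobase of the 8 genes.

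**Figure D1:**
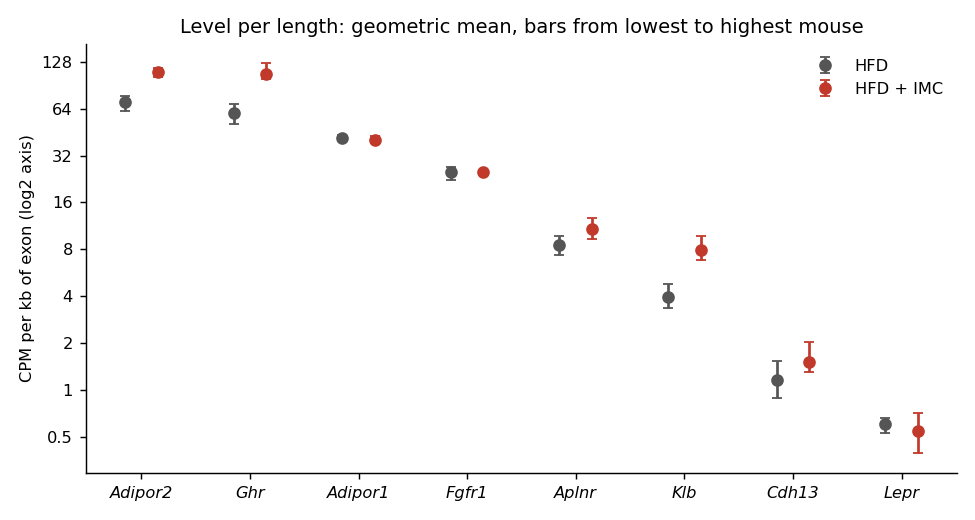
CPM per kilobase of exon on a log2 axis for the 8 receptor genes in HFD mice (grey, n = 5) and HFD + IMC mice (red, n = 6), with points at the geometric mean and bars from the lowest to the highest mouse. Adipor2 and Ghr stand at the top and Lepr at the bottom in both groups, and Klb moves from 3.98 to 7.97 CPM per kilobase toward Aplnr.

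Among the adiponectin receptors, Adipor2 was read at 8.52, 8.84, 8.69, 8.70 and 8.85 log2 CPM in HFD mice 2 to 6. Its values in HFD + IMC ran from 9.26 to 9.44 log2 CPM with a median of 9.36. Every IMC-treated mouse was above every HFD mouse, with a gap of 0.41 between the groups, and mouse 2 was the lowest of the HFD mice. The means were 8.72 ± 0.13 (SD, n = 5) and 9.36 ± 0.07 (SD, n = 6) log2 CPM. In fold terms the difference was 1.56, with a 95% interval of 1.42 to 1.71, and its Benjamini-Hochberg adjusted p was 3.49e-05 in limma.

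Adipor1 was read at 7.77, 7.69, 7.71, 7.69 and 7.65 log2 CPM in HFD mice 2 to 6. In HFD + IMC it ran from 7.59 to 7.74 log2 CPM with a median of 7.69, and the groups overlapped over most of their range. Adipor1 varied little between mice of a group, and only 3.67% of all genes had a smaller SD within groups. Its log2 difference was -0.03 (SE 0.04) with a Benjamini-Hochberg adjusted p of 0.581 in limma, and its 95% interval from -0.12 to 0.06 leaves out changes of the size seen for Adipor2.

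The ratio of Adipor2 to Adipor1 was taken within each mouse, where the scaling of the library cancels. On the log2 scale it was 0.75, 1.15, 0.99, 1.02 and 1.19 in HFD mice 2 to 6 and ran from 1.56 to 1.84 in HFD + IMC. In linear terms Adipor2 had 2.03 times the CPM of Adipor1 in HFD mice and 3.23 times in IMC-treated mice. No mouse of either group fell within the range of the other. The ratios were chosen with earlier results of these data known, so the test describes this separation and adds no independent support. The log2 ratio differed by 0.67 (two-sided exact permutation test over all assignments of the mice, p = 0.00216, the smallest that 5 against 6 mice allow, and 0.00325 after Benjamini-Hochberg adjustment over 3 ratios).

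Cdh13, the T-cadherin gene, was read at 3.32, 3.93, 3.49, 3.62 and 4.10 log2 CPM in HFD mice 2 to 6, from 222 to 403 reads. In HFD + IMC it ran from 3.87 to 4.51 log2 CPM with a median of 4.002. The groups overlapped, with 2 of the 6 IMC-treated mice above all HFD mice and all 6 above the HFD median. The log2 difference of 0.40 (SE 0.15) had a Benjamini-Hochberg adjusted p of 0.0453 in limma. This call was lost when any of 7 mice was left out (HFD mice 2, 4 and 5 and HFD + IMC mice 8, 10, 11 and 12), with adjusted p between 0.0536 and 0.121 by limma. The exact permutation test for Cdh13 alone gave p = 0.0541. The ratio of Adipor2 to Cdh13 overlapped between the groups, with 5.03 ± 0.20 (SD, n = 5) and 5.27 ± 0.21 (SD, n = 6) on the log2 scale, and its difference of 0.24 had an exact permutation p of 0.0909 before and after adjustment. A difference between the changes of these adiponectin-binding genes was therefore not detectable with all mice included, and without HFD + IMC mouse 12 it was 0.31 (adjusted exact permutation p = 0.0238).

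**Figure D2:**
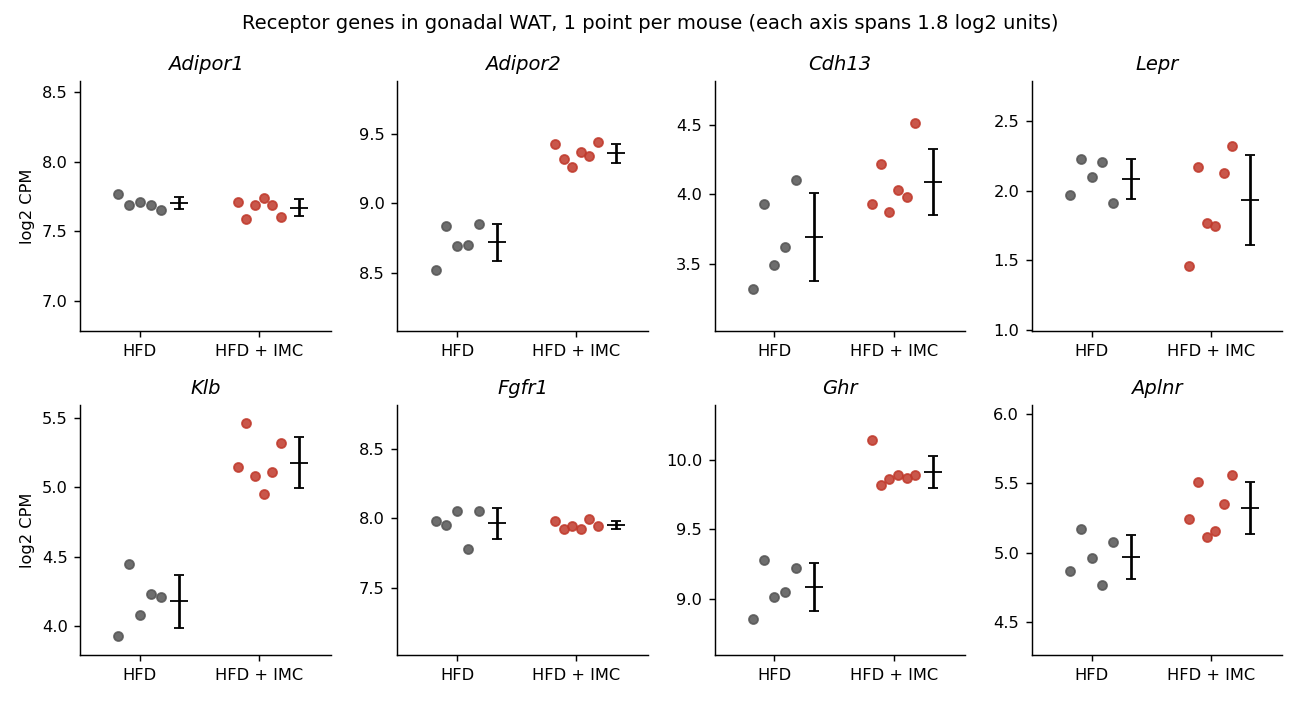
log2 CPM of each receptor gene in every mouse, with HFD in grey (n = 5) and HFD + IMC in red (n = 6), mice in number order from left to right, and the mean ± SD in black. All 8 axes span the same number of log2 units, so the separation of Adipor2, Klb and Ghr can be set against the flat values of Adipor1 and Fgfr1.

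Klb, which encodes beta-Klotho, was read at 3.93, 4.45, 4.08, 4.23 and 4.21 log2 CPM in HFD mice 2 to 6. Its values in HFD + IMC were higher in every mouse, from 4.95 to 5.46 log2 CPM with a median of 5.13, and 0.50 separated the highest HFD mouse from the lowest IMC-treated mouse. The group means were 4.18 ± 0.19 (SD, n = 5) and 5.18 ± 0.18 (SD, n = 6) log2 CPM. The fold difference of 2.001 had a 95% interval of 1.72 to 2.33 and a Benjamini-Hochberg adjusted p of 3.50e-05 in limma. Only 202 of the 12787 genes had a larger absolute log2 difference than Klb.

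Fgfr1, the kinase partner of beta-Klotho, was read at 7.98, 7.95, 8.05, 7.78 and 8.05 log2 CPM in HFD mice 2 to 6. In HFD + IMC it ran from 7.92 to 7.99 log2 CPM with a median of 7.94, inside the HFD range. HFD mouse 5 was the lowest of all mice. The log2 difference of -0.01 (SE 0.05) had a 95% interval from -0.12 to 0.10 and a Benjamini-Hochberg adjusted p of 0.851 in limma. The log2 ratio of Klb to Fgfr1 was -4.05, -3.50, -3.97, -3.54 and -3.85 in HFD mice 2 to 6 and ran from -2.97 to -2.46 in HFD + IMC. In CPM, Klb stood at 0.0726 of Fgfr1 in HFD mice and at 0.147 in IMC-treated mice, with no overlap between groups. The difference in log2 ratio was 1.01 (two-sided exact permutation test, p = 0.00216, and 0.00325 after adjustment over 3 ratios). This ratio too was chosen with earlier results of these data known, so its p-value describes the separation only. The table sums all transcripts of Fgfr1, so its splice forms with different affinities for growth factors could not be separated.

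**Figure D3:**
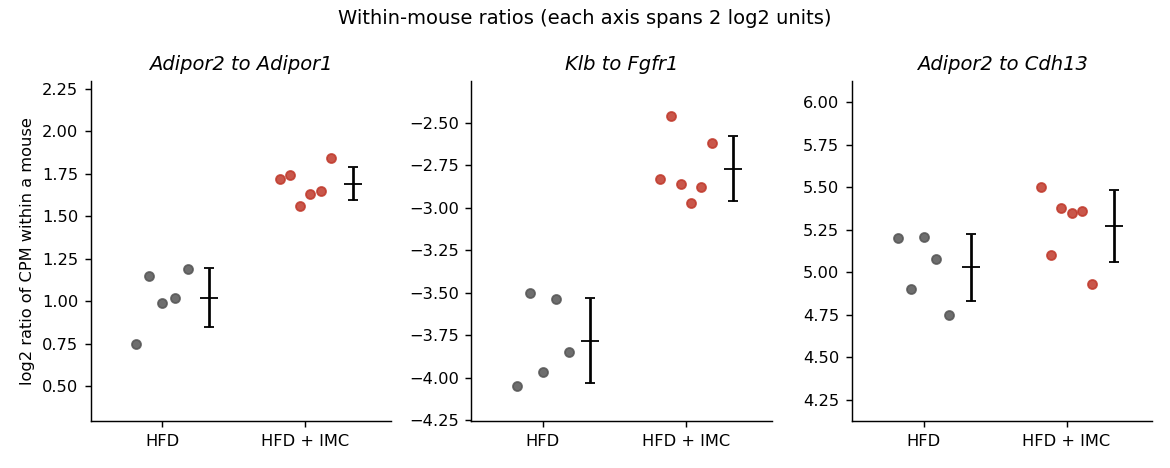
log2 ratio of CPM within each mouse for Adipor2 to Adipor1, Klb to Fgfr1 and Adipor2 to Cdh13 in HFD (grey, n = 5) and HFD + IMC (red, n = 6), with the mean ± SD in black and axes of equal span. The first pair of ratios separate the groups, while Adipor2 to Cdh13 overlaps.

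Ghr, the growth hormone receptor, was read at 8.85, 9.28, 9.01, 9.05 and 9.22 log2 CPM in HFD mice 2 to 6. In HFD + IMC its values ran from 9.82 to 10.14 with a median of 9.88 log2 CPM, all above the HFD mice by at least 0.54. Mouse 7 was the highest, and the other IMC-treated mice ran from 9.82 to 9.89. The log2 difference was 0.83 (SE 0.08, Benjamini-Hochberg adjusted p of 3.49e-05 in limma), with a fold difference of 1.77 and a 95% interval of 1.57 to 2.01. Without mouse 7 the log2 difference was 0.78 (adjusted p = 0.000115 by limma).

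Lepr was the least abundant of the receptor genes, with 63 to 121 reads per mouse. It was read at 1.97, 2.23, 2.10, 2.21 and 1.91 log2 CPM in HFD mice 2 to 6, and in HFD + IMC from 1.46 to 2.32 with a median of 1.95 log2 CPM. The IMC-treated mice spread on both sides of the HFD range, with 1 mouse above all HFD mice. The log2 difference of -0.15 (SE 0.15) had a 95% interval from -0.48 to 0.18 and a Benjamini-Hochberg adjusted p of 0.450 in limma. Changes that lie between these bounds are not left out at this depth and number of mice. The table does not separate the long, signaling form of Lepr from the short forms.

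Aplnr, the apelin receptor gene, was read at 4.87, 5.17, 4.96, 4.77 and 5.08 log2 CPM in HFD mice 2 to 6. In HFD + IMC it ran from 5.11 to 5.56 with a median of 5.29 log2 CPM. The groups overlapped slightly, with 4 of the 6 IMC-treated mice above all HFD mice. The log2 difference of 0.35 (SE 0.10) had a Benjamini-Hochberg adjusted p of 0.0108 in limma, and its fold difference of 1.27 had a 95% interval of 1.105 to 1.469.

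Read against the whole table, 62.5% of the receptor genes were higher where 19.99% of all genes were, and 37.5% rose without overlap where 12.5% of all genes did. These shares are a description of 8 chosen genes, and without the Cdh13 call, lost in 9 of 18 alternatives, 4 of the 8 were higher.

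The ligands of these receptors are made partly in the same tissue, and 7 of the 10 ligand and co-receptor genes listed were present in the table (Gh, Apela and the co-receptor Kl were not). Of the 7, 5 were higher and 0 lower, with a median log2 difference of 0.47, where 19.99% of all genes were higher and 21.0% lower. The hormone genes of fat cells changed most. Adipoq, which encodes adiponectin, ran from 9.42 to 10.13 log2 CPM in HFD mice and from 10.59 to 11.18 in IMC-treated mice, a log2 difference of 1.18 (SE 0.15, Benjamini-Hochberg adjusted p of 0.000103 in limma). Lep, which encodes leptin, rose by 1.04 (SE 0.11), from a range of 10.65 to 11.20 log2 CPM in HFD mice to 11.82 to 12.16 in IMC-treated mice. Thus the genes for both adiponectin and Adipor2 were higher in every IMC-treated mouse, whereas leptin RNA was higher without a called difference in Lepr.

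Fgf21 was scarce in this tissue, with 12 to 76 reads per mouse. It was read at -0.86, 0.11, 0.08, 0.03 and -0.14 log2 CPM in HFD mice 2 to 6 and from 0.29 to 1.62 with a median of 0.62 in HFD + IMC. The groups did not overlap, and their gap was 0.17. The log2 difference was 0.92 (SE 0.25, Benjamini-Hochberg adjusted p of 0.0113 in limma), and 0.75 (adjusted p = 0.0300 by limma) without HFD mouse 2, the lowest. Fgf10, which encodes a growth factor of adipose development, rose by 0.47 (SE 0.08) without overlap. Fgf1, which encodes a ligand of all FGF receptors, rose by 0.37 (SE 0.12, Benjamini-Hochberg adjusted p of 0.0243 in limma), a call lost without HFD mouse 2 (adjusted p = 0.0665 by limma), HFD mouse 5 (adjusted p = 0.0506) or HFD + IMC mouse 7 (adjusted p = 0.0543). Apln, which encodes apelin, had a log2 difference of -0.22 (SE 0.18) and Fgf2 one of 0.13 (SE 0.18), and neither passed the test, so Aplnr was higher while its measured ligand was not called.

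**Figure D4:**
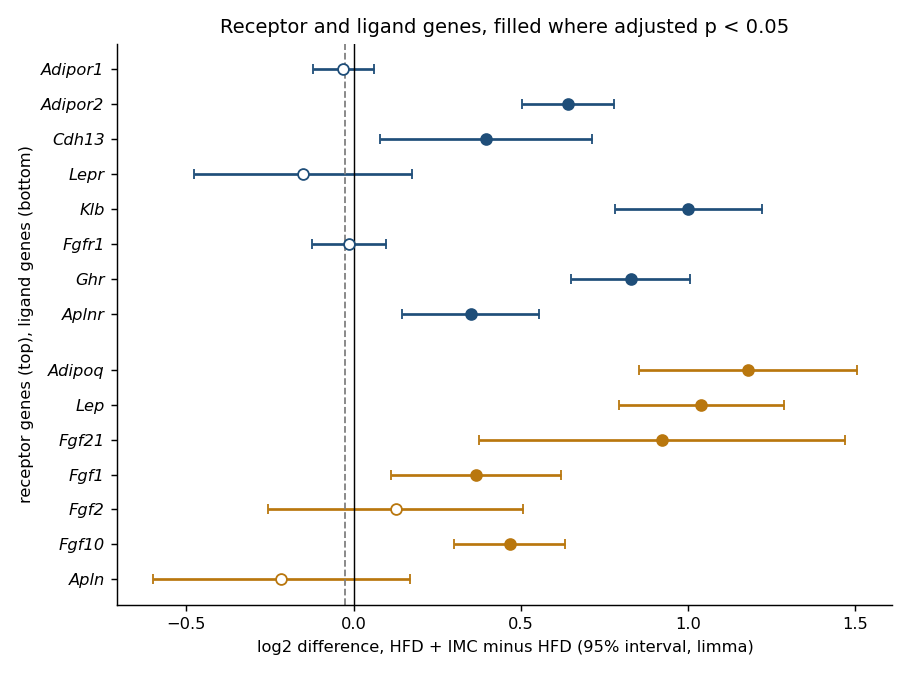
log2 difference (HFD + IMC minus HFD) with its 95% interval from limma for the 8 receptor genes (blue) and 7 ligand genes (orange), filled where the adjusted p was under 0.05. The dashed line marks the median of all genes, -0.03. Klb, Ghr and Adipor2 lie apart from the intervals of Adipor1 and Fgfr1, and the widest interval is that of Fgf21.

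Downstream of the adiponectin receptors, 14 of 15 listed signaling genes were in the table, and 3 were higher, 1 lower and 10 not called. Over all genes 19.99% were higher and 21.0% lower, the shares to hold beside this and every later list count. No list was tested as a set, and the genes named from each list are those with its smallest p-values or were picked by value. Prkaa2, which encodes a catalytic subunit of the energy sensor AMPK, rose by 0.85 (SE 0.13) on the log2 scale. Ppara, which encodes a nuclear receptor for fatty acids, rose by 0.99 (SE 0.19), and Prkag2, which encodes a regulatory AMPK subunit, by 0.23 (SE 0.05). The gene of the other catalytic subunit, Prkaa1, was not called. The median log2 difference of the list was 0.02. Of the other PAQR genes, 6 of 9 were present, with 3 higher, 1 lower and 2 not called. Paqr9 rose by 0.81 (SE 0.09), Mmd by 0.71 (SE 0.09) and Paqr4 by 0.33 (SE 0.10), and the median of the list was 0.22.

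The list for leptin and growth hormone signaling had all 23 genes in the table, of which 6 were higher, 6 lower and 11 not called, with a median log2 difference of -0.02. Ptpn11, which encodes the phosphatase SHP2, rose by 0.48 (SE 0.05). Igfals, which encodes a carrier of insulin-like growth factors, rose by 1.13 (SE 0.18), and Stat5a, which encodes a transcription factor used by Ghr, by 0.30 (SE 0.05). The insulin receptor substrates Irs2 and Irs1 rose by 0.72 and 0.34. Socs1, which encodes an inhibitor of cytokine receptor signaling, fell by 0.85 (SE 0.18), with overlapping groups and only 22 to 61 reads per mouse. Ptpn1, which encodes a phosphatase acting on JAK2, fell by 0.37. Leprotl1, whose product is known to lower the surface display of Ghr, fell by 0.35. Jak2 and Igf1 were not called, with log2 differences of -0.10 and -0.08.

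Of the FGF receptor signaling genes, 18 of 21 were present, and 4 were higher, 6 lower and 8 not called, with a median of 0.00. Fgfr2, Fgfr3 and Fgfr4 were not among the listed genes, so Fgfr1 was the only kinase of this receptor family with values here. Spry4, which encodes a feedback inhibitor of the pathway, rose by 1.12 (SE 0.08), and Fgfrl1, a receptor relative without a kinase domain, by 0.84 (SE 0.08). Other feedback inhibitor genes of the list did not follow Spry4. Spred1, Dusp6 and Spry2 were called lower, by 0.35, 0.44 and 0.27, and Spry1 and Spred2 were not called. Grb2, which encodes an adaptor, fell by 0.27 (SE 0.05).

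For apelin signaling, 10 of 11 genes were present, with 4 higher, 4 lower and 2 not called and a median of -0.02. Mme, which encodes the protease neprilysin that cleaves apelin, rose by 0.82 (SE 0.10), Gnai1, which encodes an inhibitory G protein subunit, by 0.73 (SE 0.09), and Prkce, which encodes a protein kinase C, by 0.81 (SE 0.11). The endothelial nitric oxide synthase gene Nos3 rose by 0.83 and the flow-responsive factor gene Klf2 fell by 0.64. Of 23 other hormone receptor genes, 20 were present, with 12 higher, 1 lower and 7 not called and a median of 0.43. Mc2r, the corticotropin receptor gene, rose by 1.03 (SE 0.10), the natriuretic peptide clearance receptor gene Npr3 by 0.87 (SE 0.09) and the thyrotropin receptor gene Tshr by 0.95 (SE 0.10).

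Marker lists of the cell types of the tissue were read beside these results, again with 19.99% of all genes higher and 21.0% lower. Adipocyte markers were present for 14 of 14 genes, with 12 higher, 0 lower and a median log2 difference of 0.89, and their summed CPM was 28044 to 32787 in HFD mice and 39451 to 44691 in IMC-treated mice. Adipoq is in this list as well as among the ligands. Macrophage markers were present for 12 of 12, with 0 higher and 10 lower, and their summed CPM fell from a range of 10044 to 13433 to one of 5726 to 8927. Endothelial markers were present for 12 of 12, with 2 higher, 0 lower and 10 not called, and their summed CPM was 668 to 876 in HFD mice and 744 to 1029 in IMC-treated mice. Smooth muscle and pericyte markers were present for 7 of 8 (not Cnn1), with 4 higher, 0 lower and a median log2 difference of 0.62, and summed CPM of 469 to 692 against 866 to 1113. The labelled tissue thus carried the defining markers of fat, and 0 of 8 markers of the neighbouring epididymis were listed. The part of these marker levels in the higher Adipor2, Klb, Ghr, Cdh13 and Aplnr was not tested. Set side by side, the log2 differences of Adipor2 (0.64), Ghr (0.83), Aplnr (0.35) and Cdh13 (0.40) were below the adipocyte median of 0.89. That of Klb (1.001) was above it. Each of these genes was above the endothelial median of 0.22. Against the smooth muscle and pericyte median of 0.62, Aplnr and Cdh13 were below and Adipor2, Ghr and Klb above.

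Other lists were as follows. Progenitor and fibroblast markers were present for 12 of 12, with 0 higher and 8 lower (summed CPM 10946 to 13835 in HFD and 8497 to 11043 in HFD + IMC), and mast cell markers for 7 of 8, with all 7 lower (507 to 1157 against 161 to 326). Mesothelial markers were present for 6 of 10 (not Msln, Krt8, Krt18 and Muc16), with 0 higher and 2 lower (240 to 330 against 110 to 269). Skeletal muscle markers were present for 5 of 12, with 2 higher and 0 lower (16.9 to 22.4 against 34.5 to 60.6), and Ckm and Ttn were not listed. For neutrophils 3 of 6 and for T and NK cells 2 of 8 markers were present, and none of these passed the test (summed CPM 24.6 to 30.6 against 26.6 to 32.5, and 8.11 to 24.7 against 5.08 to 11.6). Of 6 B cell markers 0 were listed, and Cd3e, Cd4, Cd8a and Ly6g were not listed either.

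The differences between mice of the same group gave a second view of the receptor genes. After centring each gene on its group mean, Pearson's r over the 11 mice was 0.85 between Adipor2 and Ghr (Spearman's rho 0.89) and stayed between 0.75 and 0.91 with any mouse left out. Adipor2 also ran with Cdh13 (r = 0.79, rho 0.78), and Cdh13 with Aplnr (r = 0.78, rho 0.72). Adipor1 ran opposite to Klb, with r = -0.84 (rho -0.85). These values come from the same 11 libraries, share their depth and scaling and are given as a description, and they are not independent of the marker levels. The score of a marker list was the mean of its centred genes. The adipocyte score had r = 0.88 with Adipor2 (rho 0.77), 0.82 with Ghr (rho 0.69), 0.85 with Cdh13 (rho 0.75) and 0.65 with Klb. Klb had r further from 0 with the endothelial score (r = 0.73) and the macrophage score (r = -0.76). By rank the order of adipocyte and endothelial turned for Klb, with rho 0.74 for the adipocyte, 0.54 for the endothelial and -0.76 for the macrophage score. The endothelial score had r = 0.87 with Aplnr (rho 0.75) and 0.82 with Cdh13 (rho 0.63). The smooth muscle and pericyte score had r = 0.88 with Cdh13 (rho 0.76) and 0.82 with Aplnr (rho 0.77). Adipor1 ran with the macrophage score (r = 0.76, rho 0.66) and opposite to the endothelial score (r = -0.77, rho -0.65). Fgfr1 had r of at most 0.32 with any other receptor gene, and Lepr had r = 0.01 with the adipocyte score.

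**Figure D5:**
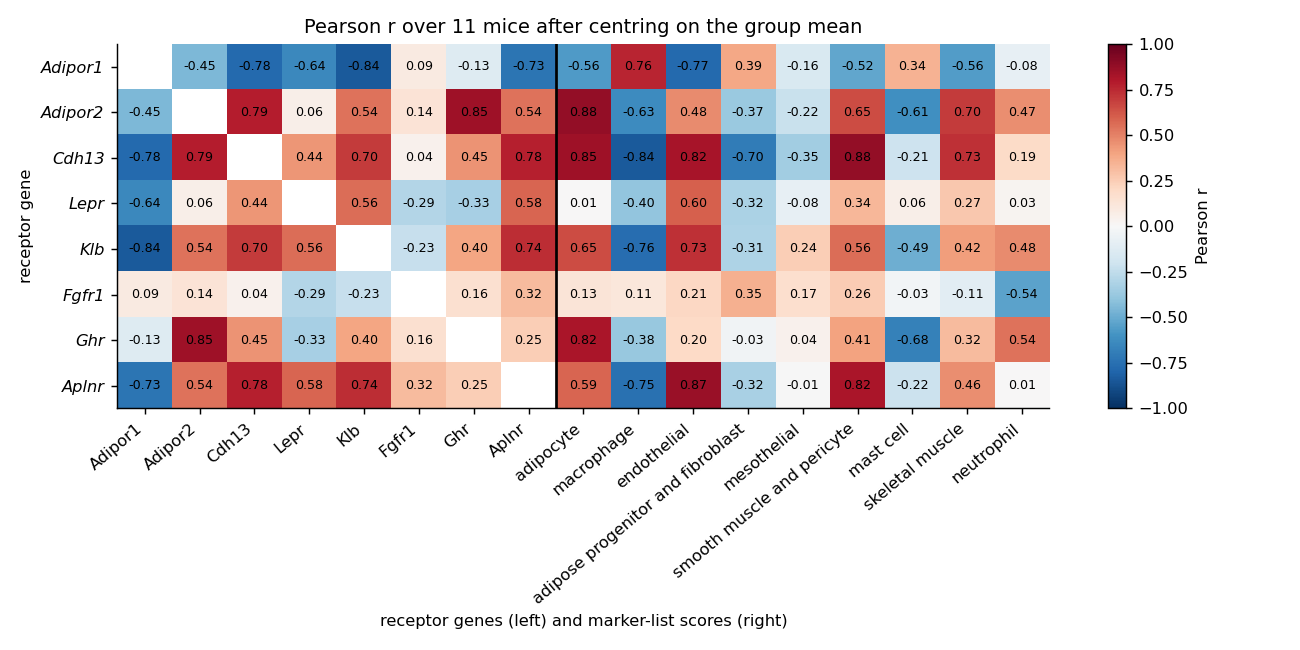
Pearson's r over 11 mice between each receptor gene (rows) and the other receptor genes or marker-list scores (columns), with every gene centred on the mean of its group. Adipor2 and Ghr share high values with each other and with the adipocyte score, Aplnr has its highest value with the endothelial score, and Fgfr1 is weak throughout except for -0.54 with the neutrophil score.

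By the same measure, the genes most like each receptor gene were named. For Adipor2 they included Itga6 (r = 0.96) and Plin1 (0.94), the latter encoding the main lipid droplet coat protein of fat cells. For Ghr they were Npr3 (0.97), Slc2a10 (0.95) and Prkar2b (0.94), the last encoding a regulatory subunit of protein kinase A that is abundant in fat. Klb was most like Peg3 (0.97), Adck3 (0.95) and Supv3l1 (0.95). Adipor1 was most like Atp6ap2 (0.96), Mtpn (0.95) and Rnf13 (0.95), which had log2 differences of -0.40, -0.15 and -0.19 between the groups. Cdh13 was most like Krt79 (0.98), the adenosine receptor gene Adora1 (0.97) and Bfar (0.97). Aplnr was most like Tmem44 (0.95), Fam160a1 (0.95) and the endothelial transcription factor gene Sox7 (0.94). Lepr was most like Abcb10, Slc41a1 and Rgs12 (0.90, 0.90 and 0.89). For Fgfr1 the genes were Sync (0.90), Vps4a (0.90) and Fam149b (0.86), and these rested on HFD mouse 5, without which r was 0.59, 0.54 and 0.72.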

How the data were processed

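RNA from gonadal WAT was made into directional mRNA libraries. The authors used Trim Galore for trimming and STAR for alignment to mm10, counted reads per gene, removed low transcripts and scaled libraries by the upper quartile with edgeR. They deposited log2 CPM for 12787 genes in 11 mice, beside the fold change, mean level, statistic, p-value and FDR of their own comparison, which were not used. The strand setting of the count was not given in the sources used here, and 0 columns belonged to other samples. Low values of each mouse step by whole reads plus an added constant (mean 0.25 reads), and 100% of the values came out whole within 0.01 reads, which gave the depth and the alternative scalings. The intervals cover the spread between mice.

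The deposited log2 CPM were compared with limma 3.58.1 in R 4.3.3 (lmFit, eBayes with trend, group as the only factor) with Benjamini-Hochberg adjustment over all genes. Ratios were compared by two-sided exact permutation. The limma step and the recovery of reads were tested on simulated data. The labels name no batch, and the mouse numbers pair no mice. The receptor genes, ratios and gene lists were chosen with earlier results of these data known. Genes were named by a rule, which took the 8 receptor genes, all ligand genes, the 3 smallest p-values of every pathway list and the 3 genes with the highest r for each receptor gene. Of these, 1 gene is not reported here. Further listed genes (Prkaa1, Irs1, Irs2, Socs1, Ptpn1, Leprotl1, Jak2, Igf1, Nos3 and Klf2) were named after their values were seen. So were Spred1, Spred2, Spry1, Spry2 and Dusp6, which were set beside Spry4. The alternatives were limma without the trend, limma voom on recovered reads, an added constant of 2 reads, scaling by total reads or by the median of ratios, a minimum mean of 1 log2 CPM, array weights and each mouse left out. The same alternatives for the ligand and pathway genes named in the text, except those set beside Spry4, were added after seeing the data. Levels per kilobase used the exon length of GENCODE M21. Tables and figures were made with Python 3.11.15, numpy, pandas, scipy and matplotlib.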

Additional observations from a re-analysis of the deposited data

Results flagged for a closer look

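Of 36 groups checked (18 genes and ratios in each diet group), 3 had a mouse whose gap to its nearest neighbour took up more of the group's range than Dixon's 95% limit allows. Chance flags about 1 in 20 groups. Ghr was highest in HFD + IMC mouse 7, at 10.14 log2 CPM, and the difference kept its call without that mouse (0.78, adjusted p = 0.000115 by limma). Fgf21 was lowest in HFD mouse 2, at -0.86 log2 CPM from 12 reads, and its difference was 0.75 without that mouse. Apln was lowest in HFD + IMC mouse 10, at 2.67 log2 CPM, and its log2 difference was -0.11 (adjusted p = 0.627 by limma) without it, on the same side of the threshold as with it.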

How the results depend on the processing

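Adipor2, Klb, Ghr and Aplnr kept their direction and call in all 18 alternatives, with log2 differences of 0.59 to 0.67, 0.94 to 1.07, 0.77 to 0.88 and 0.30 to 0.40. Cdh13 lost its call without the trend (0.40, adjusted p = 0.0576 by limma) and with scaling by total reads (0.36, adjusted p = 0.0693 by limma), and ran from 0.30 to 0.50 with each mouse left out. The cause was not tested. Adipor1 and Lepr were not called in any alternative. Fgfr1 was not called either, but ran from -0.060 to 0.0088 with each mouse left out, its sign turning without HFD mouse 4 (0.0072) or mouse 6 (0.0088). Between 4 and 5 receptor genes were called, and 4299 to 5479 genes in all. Scaling by total reads gave 2203 genes higher and 3261 lower, and the median of ratios 2646 higher and 2532 lower. The ratios of Adipor2 to Adipor1 and Klb to Fgfr1 kept their calls, while that of Adipor2 to Cdh13 ran from 0.17 to 0.31. Of 627 values for 35 other ligand and pathway genes, 3 lost their call, all for Fgf1. The remaining genes behind the list counts, among them Spred1, Dusp6 and Spry2, are not covered by these values. Their calls include some close to the threshold. The FGF receptor signaling list had one at an adjusted p of 0.04998 in limma, and the leptin and growth hormone list one at 0.0474. The list counts are therefore less certain than the values of the 35 genes. No paired analysis was possible because the mouse numbers of the groups do not overlap. Low depth limits Lepr, Fgf21, Fgf2 and Socs1.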
